A study of Danio rerio with 10 samples.

Results

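The homeobox developmental factors outside the HOX clusters were 65 genes of the Iroquois (irx, 11 genes), Distal-less (dlx, 8), LIM-homeodomain (lhx, 9), nkx (16), otx (4), emx (3), gsx (2), barhl (3), vsx (2), msx (5) and gbx (2) families. They were chosen by the start of their symbol among the 24868 genes named in the deposited region tables. For engrailed genes, only the symbols en1a, en1b, en2a and en2b were looked for, and none was listed. Other symbols of engrailed genes were not looked for. Chromatin of the lateral rectus, a muscle that moves the eye, was immunoprecipitated for 3 modifications of histone H3 and sequenced: acetylation of lysine 27 (H3K27Ac), trimethylation of lysine 4 (H3K4me3) and trimethylation of lysine 27 (H3K27me3). Muscle came from uninjured zebrafish (control) and from fish at 9 and 18 hours post-injury (hpi), the injury being excision of part of the muscle. There was 1 library per mark and time, 9 in all, so no difference has a replicate check and no p-value or SD is given.

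All 3 groups consisted of sexually mature adults, 4 to 18 months old. The series text gives wild-type fish, whereas the growth protocol names wild-type fish and fish carrying an α-actin::EGFP transgene without saying which entered which pool. Tissue was pooled from 119 fish in control, 192 at 9 hpi and 200 at 18 hpi, so each library is an average over many animals and over all cell types of the muscle. Fewer cells of a type and less of a mark per cell cannot be told apart in such tissue.

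Homeobox factors bind DNA through the homeodomain and assign regional and cell identity in the embryo. Irx genes pattern the neural plate and the heart, dlx genes the forebrain, branchial arches and fins, lhx genes motor neurons and interneurons, and nkx genes the ventral neural tube, heart and thyroid. Their best known roles lie in the embryo rather than in adult muscle. Genes of this kind are classic targets of Polycomb repressive complex 2, which deposits H3K27me3, and their starts often lie in CpG-rich stretches that can also carry H3K4me3, a mark of promoters. H3K27Ac marks active promoters and enhancers and cannot share a lysine with H3K27me3.

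The starts of nearly all homeobox genes lay in H3K27me3 at every time. In control muscle, 63 of the 65 starts (96.9%) fell inside a called H3K27me3 interval, against 30.5% of the 24514 other genes and 30.7% of all genes. At 9 hpi 61 starts (93.8%) did so, where all genes gave 29.7%, and at 18 hpi 62 (95.4%), where all genes gave 29.5%. The exceptions were 4 genes. The starts of lhx1a and msxd lay in no H3K27me3 interval at any time, that of dlx6a in control only, and that of nkx6.3 in control and at 18 hpi.

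The marks of active promoters were rare at the same starts and became rarer after injury. An H3K4me3 interval held the start of 15 homeobox genes (23.1%) in control, 10 (15.4%) at 9 hpi and 7 (10.8%) at 18 hpi, while the shares of all genes were 59.1, 59.5 and 59.6% at these times. An H3K27Ac interval held the start of 5 homeobox genes (7.69%) in control, 4 (6.15%) at 9 hpi and 2 (3.08%) at 18 hpi, against 54.7, 55.2 and 52.7% of all genes. Weak H3K27Ac intervals were often lost at other genes too. Of 333 other genes with control intervals no stronger than the homeobox median of 9.26 tags, 53.5% kept them at 9 hpi and 41.4% at 18 hpi. Of 3 homeobox genes at this level, chosen after the data were seen, 2 and 1 kept them. With so few genes, no H3K27Ac loss beyond that of weak intervals can be read. Both time points are set against the same control libraries.

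**Figure D1:**
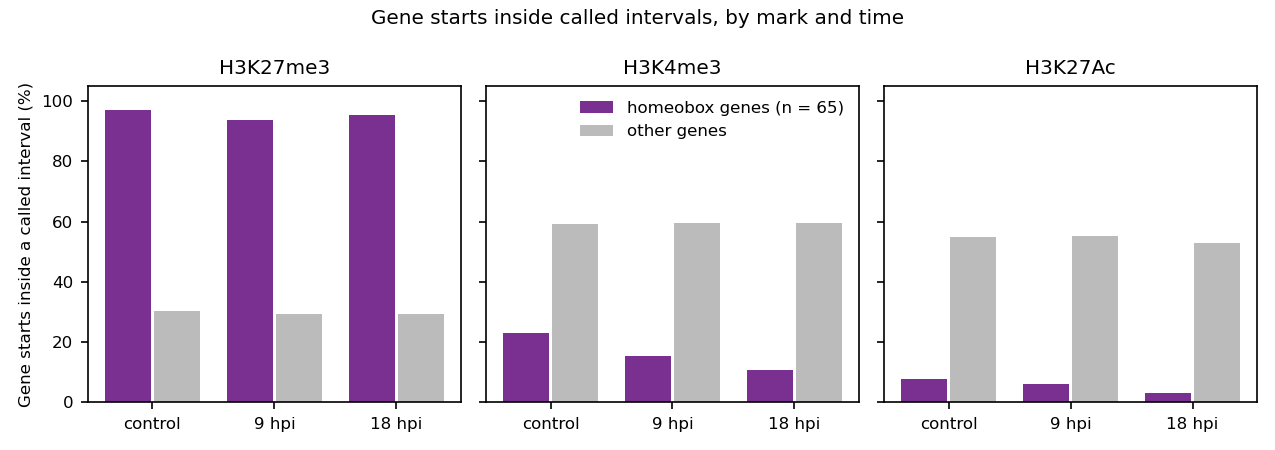
Share of gene starts (%) that lay inside a called interval of each mark in control and at 9 and 18 hpi; purple bars are the 65 homeobox genes and grey bars the 24514 other genes, with 1 library per bar and no error bars. The purple bars lie between 93.8 and 96.9% for H3K27me3 and fall from 23.1 to 10.8% for H3K4me3 and from 7.69 to 3.08% for H3K27Ac, while the grey bars move by less than 3 percentage points.

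In control, H3K27me3 was the only one of these marks at 49 of the 65 starts, accompanied by H3K4me3 at 9 more and by both other marks at 5. At 18 hpi 54 starts carried H3K27me3 alone, 6 carried it with H3K4me3 and 1 with both other marks. Counted this way, H3K4me3 and H3K27me3 intervals both held the start of 14 homeobox genes (21.5%) in control. At 9 hpi they held 10 (15.4%) and at 18 hpi 7 (10.8%). The shares of all genes were 16.7, 16.8 and 16.1%. The homeobox counts are small and at 9 hpi the shares lay close together, so no crossing of the background is read from them. The start of msxd was held by H3K4me3 alone in control and by none of the marks after injury, although an H3K4me3 interval was called beside it at 18 hpi. Interval ends lie on a 200 bp grid, and lhx8a and barhl1a count as H3K27me3 alone in control by a narrow margin. The start of lhx8a is at 11422196 and its H3K4me3 region, called in control, begins at 11422201. That of barhl1a is at 29150875 and its H3K4me3 region, called at all times, ends at 29150800.

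H3K27me3 at homeobox genes lay in long, strong domains. The value of a region is its average tag pileup, the mean number of overlapping tags over the bins of the region. The 58 regions that held the starts of the 63 genes had a median length of 20100 bp, against 7400 bp for regions that held starts of other genes, and a median average pileup in control of 26.9 tags against 9.05. They also more often contained a CpG island in the authors' annotation (34 of 58, 58.6%, against 30.9%), but per 10 kb of region the numbers of islands were nearer to each other, 0.474 and 0.394.

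A start region was defined as the region whose middle lay nearest to the gene start, within 5000 bp. Among start regions, the highest H3K27me3 averages in control were those of otx1b, nkx6.2, nkx2.9, dlx1a and emx1. The limit left out other strong regions, such as that at the start of dlx5a, with 41.4 tags in control. The region of otx1b, a factor of the forebrain and midbrain, lay on chromosome 17 from 24290001 to 24312400 (build danRer10, as are all coordinates here) and averaged 51.2 tags in control, 50.2 at 9 hpi and 49.0 at 18 hpi. That of nkx6.2, which acts in ventral neural progenitors, averaged 45.0, 38.4 and 38.3 tags. The next were nkx2.9, another ventral neural tube factor, with 44.2, 44.3 and 44.7 tags, dlx1a, a forebrain interneuron factor, with 40.8, 40.5 and 40.6 tags, and emx1, a factor of the dorsal forebrain, with 38.6, 35.6 and 35.7 tags. Of these genes, nkx6.2 moved most between the times, and its change was below 2-fold.

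The longest regions each spanned a pair of neighbouring nkx genes. A single region of 50600 bp on chromosome 17 (38281001 to 38331600) held the starts of nkx2.1, known for its role in thyroid and ventral forebrain, and nkx2.9. Another of 50200 bp on chromosome 13 (40260001 to 40310200) held nkx2.3 and nkx3.3 and averaged 25.4, 25.9 and 25.1 tags, and one of 43600 bp on chromosome 20 (48939401 to 48983000) held nkx2.2b and nkx2.4b with 27.9, 27.4 and 29.1 tags. Neighbouring dlx genes also shared regions: dlx1a and dlx2a had one of 36400 bp and dlx3b and dlx4b one of 30400 bp, while dlx2b and dlx4a lay alone. The starts of dlx5a and dlx6a lay in different regions. That at the start of dlx5a (chromosome 19, 41861401 to 41894600) averaged 41.4, 39.5 and 39.5 tags, and the authors' annotation also places it inside dlx6a, as it does a weaker region of 9.11, 7.44 and 6.60 tags. The region at the listed start of dlx6a itself, at 6.30, 5.73 and 5.43 tags, was the lowest of the 58 that held a start and was called in control alone.

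H3K27me3 start regions within 5000 bp existed for 41 of the 65 genes, and none changed by 2-fold or more at either time. The change was taken as log2 of the ratio of average pileups plus 1, relative to the median change of all kept regions of the mark. Over all 8316 H3K27me3 start regions, 0.373% were higher and 0.0601% lower by 2-fold or more at 9 hpi, and 0.589% and 0.12% at 18 hpi, so a count of 0 among 41 is also what this background gives. The median change of the homeobox genes was -0.040 at 9 hpi and 0.0051 at 18 hpi, beside 0.0069 and 0.010 over all start regions. Their spread was narrow: the median size of the change was 0.079 and 0.071 on the log2 scale, against 0.162 and 0.177 over all start regions, which are weaker on the whole. The control averages of 40 of these 41 regions lay above the median of all, 8.73 tags.

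The members at the ends of this range were LIM-homeodomain genes and gbx1. For lhx4, a motor neuron and pituitary factor, the average was 28.1 tags in control, 32.3 at 9 hpi and 35.8 at 18 hpi, a log2 change of 0.20 and then 0.36, the greatest increase. For lhx3, its close relative, the average was 33.1, 29.9 and 27.03 tags, which was the greatest decrease at 18 hpi (-0.26). At 9 hpi the greatest decrease was that of gbx1, a hindbrain factor, with 25.1, 20.9 and 22.0 tags (-0.25). Each of these differences is below 2-fold and rests on single libraries.

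**Figure D2:**
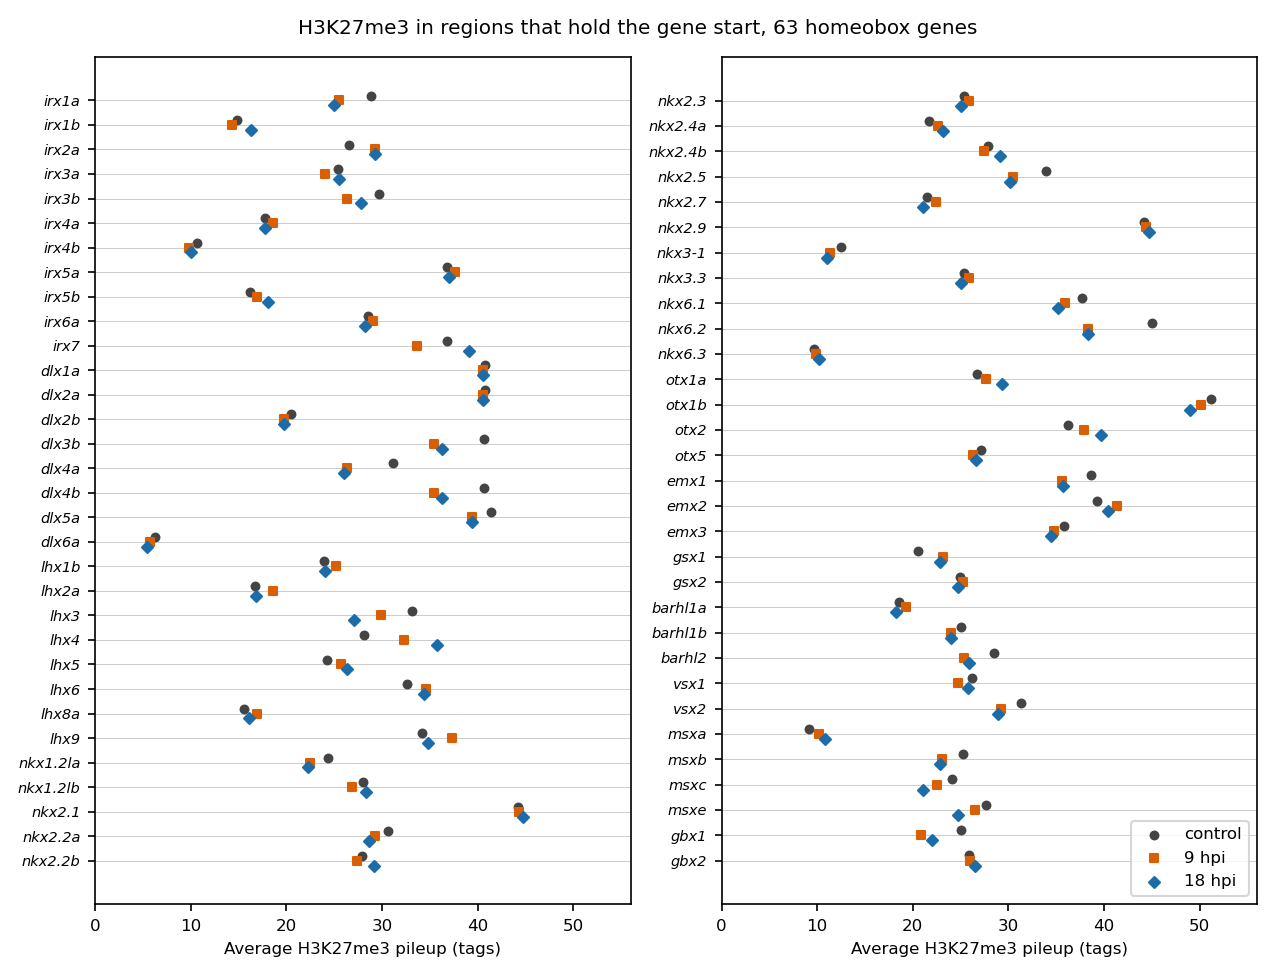
Average H3K27me3 pileup (tags) of the region that holds the gene start for 63 homeobox genes, sorted by family, with 1 point per library (grey circles control, orange squares 9 hpi, blue diamonds 18 hpi). Levels run from about the 6.30 tags of dlx6a to the 51.2 tags of otx1b in control, and the points of a gene lie close together compared with the differences between genes.

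The 5000 bp limit left 24 of the 65 genes without an H3K27me3 start region, since the middle of a long domain can lie farther than that from a start inside it. The member just inside the limit was dlx2b (4647 bp; 20.5, 19.8 and 19.7 tags) and the one just outside was irx2a (5043 bp; 26.5, 29.3 and 29.3 tags). When the 58 regions that held a gene start were used instead, which was chosen after the data were seen, again none changed by 2-fold or more, beside 0.395% of all such regions higher and 0.0408% lower at 9 hpi, and 0.599% and 0.109% at 18 hpi.

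H3K4me3 fell at several homeobox genes. A start region of this mark existed for 19 genes; for 13 others the nearest region lay beyond 5000 bp, in 10 of them nearer to another gene, and 33 had none. Of the 19, 7 were lower and 1 higher by 2-fold or more at 9 hpi, where all start regions gave 2.66% lower and 3.09% higher. At 18 hpi 6 were lower and 1 higher, where all start regions gave 2.87% lower and 4.09% higher. The median change of the 19 was -0.46 at 9 hpi and -0.57 at 18 hpi, while that of all start regions was 0.0070 and 0.014. With a pseudocount of 5, which weighs weak regions less, the decreases numbered 1 at 9 hpi and 3 at 18 hpi. Regions were merged from called intervals, so a region called in control only was listed because it was high there. This was so for dlx2a, dlx5a, emx2, lhx8a and msxe. Of these, emx2 and lhx8a are among the decreases at both times, and for such regions a decrease is favoured in advance.

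These regions were weak, and weak regions passed 2-fold more often. The control average over the 19 had a median of 10.6 tags, against 28.0 over all H3K4me3 start regions, and 3 of the 19 reached the 25th percentile of all regions. Among the 3752 start regions of other genes no stronger than the strongest homeobox gene, 8.9% were lower and 10.2% higher at 9 hpi, and 8.4% were lower and 12.7% higher at 18 hpi. Beside these shares stand the 7 and 6 of 19 homeobox genes that were lower and the 1 that was higher. Among other genes whose start lay in both H3K4me3 and H3K27me3 in control (3818 regions), 3.67% were lower and 1.31% higher at 9 hpi, and 4.92% were lower and 1.91% higher at 18 hpi. This group was not limited by signal. It also differs in kind from the 19, of which barhl1a, lhx6, lhx8a, msxd and nkx6.2 did not have both marks at the start in control.

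**Figure D3:**
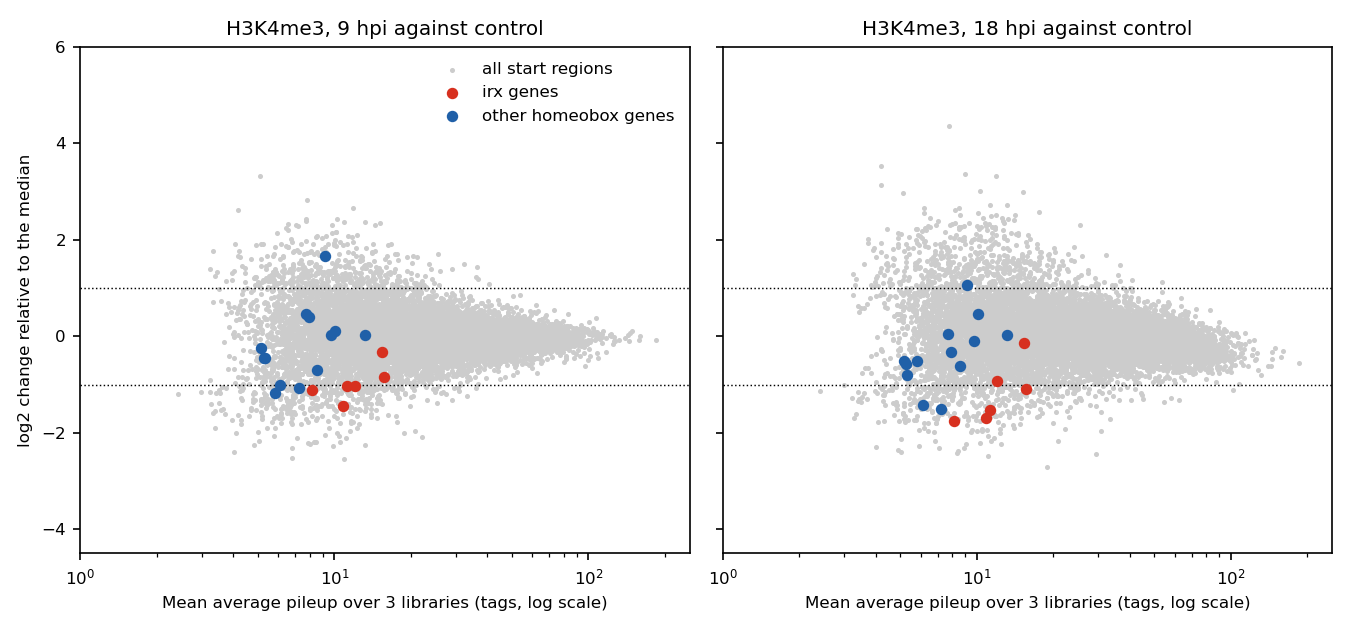
Log2 change of H3K4me3 relative to the median (vertical axis) against mean average pileup over the 3 libraries (tags, log axis) at 9 and 18 hpi; grey points are all start regions, red points the 6 irx genes and blue points the other 13 homeobox genes, and dotted lines mark 2-fold. All red points lie below 0 at both times, and the blue point above the upper line is lhx3.

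By region average, the Iroquois genes held the strongest H3K4me3 of the set in control, and they contributed 4 of the 7 decreases at 9 hpi and 4 of the 6 at 18 hpi. Irx1b, which takes part in neural and heart patterning, had its H3K4me3 start region on chromosome 19 from 28543801 to 28547400, with averages of 20.4 tags in control, then 6.61 and 5.42. The region was high in control and low at both later times, a log2 change of -1.44 and -1.70. Its duplicate irx1a averaged 14.8, 6.08 and 3.58 tags (-1.10 and -1.75), the greatest decrease of any member at 18 hpi. For irx2a, the neighbour of irx1a on chromosome 16, the average was 19.3, 8.52 and 5.91 tags (-1.04 and -1.52).

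The irx3 and irx5 genes moved less evenly. Irx5a had the highest region average of all members in control, 24.0 tags on chromosome 7 (35434601 to 35441600), and 12.5 and 10.5 tags afterwards (-0.84 and -1.09); among called control intervals, the 600 bp interval of msxb averaged more, 30.2 tags. Irx3a averaged 18.7, 8.26 and 9.07 tags, which passed 2-fold at 9 hpi (-1.04) and not at 18 hpi (-0.93). Its duplicate irx3b was the least changed of the family, with 17.4, 13.2 and 15.4 tags (-0.33 and -0.14). In all, 4 of the 6 irx genes were lower by 2-fold or more at each time, with a median change of -1.04 and -1.31. Of the other 13 homeobox genes, 3 at 9 hpi and 2 at 18 hpi were lower, with medians of -0.23 and -0.51. Over all start regions 2.66% and 2.87% were lower. The split by family was not among the planned results. With a pseudocount of 5, irx1b alone of the irx genes stayed past 2-fold at 9 hpi, and irx1a, irx1b and irx2a at 18 hpi.

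Outside the Iroquois family, emx2, lhx8a and msxd were lower by 2-fold or more at 9 hpi, and emx2 and lhx8a at 18 hpi. Emx2, a dorsal forebrain factor, fell from 12.7 tags in control to 5.27 and 3.71 (-1.07 and -1.50). Lhx8a, which in mouse specifies forebrain cholinergic neurons through its counterpart Lhx8, fell from 10.6 to 4.57 and 3.18 tags, just past 2-fold at 9 hpi and with a log2 change of -1.43 at 18 hpi. Msxd, of the msx family known for roles in neural crest and fin, averaged 8.68, 3.15 and 5.64 tags, past 2-fold at 9 hpi only (-1.17 and -0.51). Of the other msx genes with a region, msxb averaged 13.3, 13.1 and 13.2 tags, msxc 10.1, 9.87 and 9.19 tags, and msxe 6.97, 4.59 and 4.23 tags (-0.46 and -0.57), all within 2-fold.

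The 1 increase was that of lhx3, which specifies motor neurons and pituitary cells. Its H3K4me3 region on chromosome 5 (71027801 to 71034200) averaged 3.97 tags in control, 14.3 at 9 hpi and 9.20 at 18 hpi, a log2 change of 1.67 and 1.07. It was the weakest of the 19 regions in control and was no longer so at either later time. The middle of this region lay 2965 bp from the gene start, the farthest inside the limit for this mark, while the nearest region outside it, of lhx2a at 5987 bp, lay closer to dennd1a and averaged 44.9, 45.2 and 42.6 tags.

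**Figure D4:**
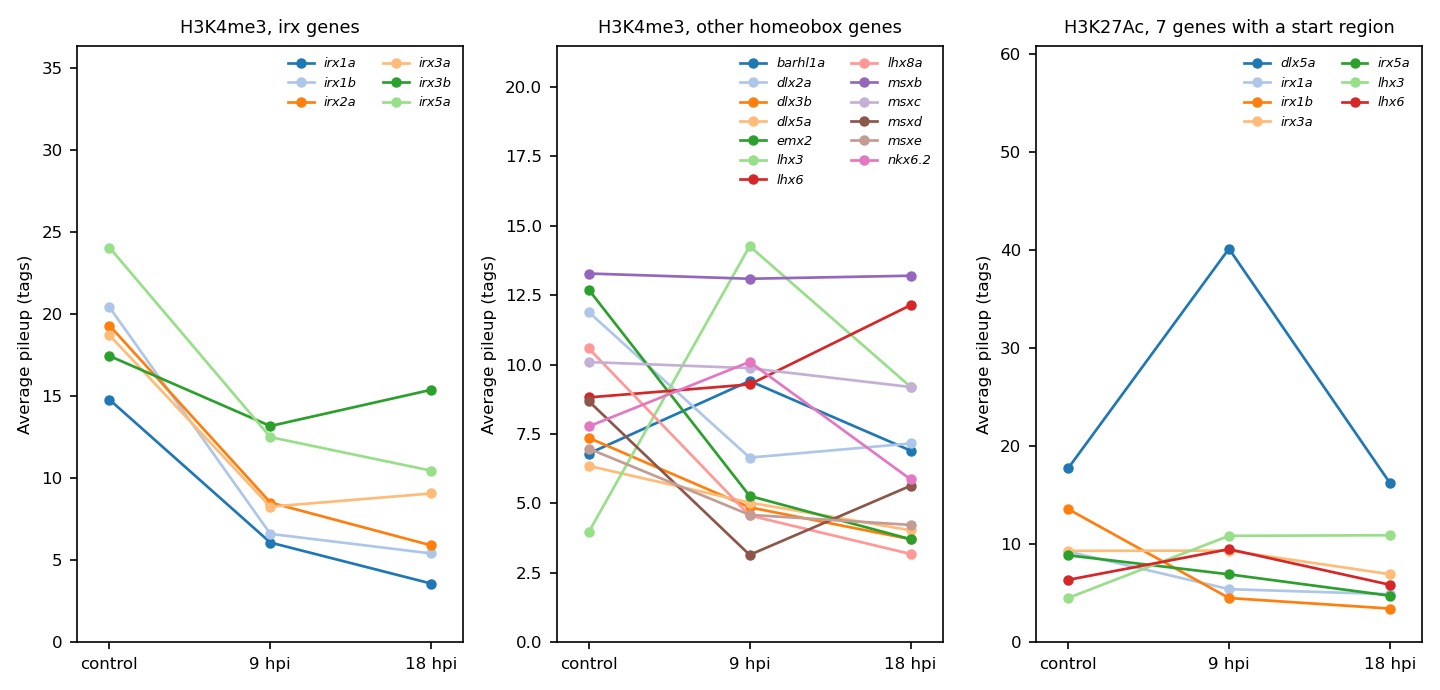
Average pileup (tags) of start regions in control and at 9 and 18 hpi for H3K4me3 at the 6 irx genes (left), H3K4me3 at the other 13 homeobox genes (middle) and H3K27Ac at the 7 genes with a start region (right), 1 point per library. The H3K4me3 lines of the irx genes run downward from control to 9 hpi, from 20.4 to 6.61 tags for irx1b, while lhx3 rises in both marks.

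Interval calls can be followed from control onward, although a start that enters through its control interval can then only keep or lose it. Of the 15 homeobox starts inside an H3K4me3 interval in control, 9 (60%) were still inside one at 9 hpi and 7 (46.7%) at 18 hpi. Other genes kept 95.4% at each time, and retention was lower for weak intervals: of 1156 other genes with control intervals no stronger than the homeobox median of 12.7 tags, a level chosen after the data were seen, 71.4% kept them at 9 hpi and 74.3% at 18 hpi, beside 3 and 2 of 8 homeobox genes. Of the 50 homeobox starts outside H3K4me3 in control, 1 gained an interval. Among other genes outside it in control, 8925 starts stayed outside at both later times. An interval was gained by 296 at 9 hpi only, by 302 at 18 hpi only and by 490 at both. Control intervals were gone from the starts of dlx2a, dlx5a, emx2, msxd and msxe at both times, and from dlx3b, irx1a and irx2a at 18 hpi. They held at irx1b, irx3b, irx5a, lhx3, msxb and msxc and missed irx3a at 9 hpi only. At msxd an interval was called again at 18 hpi in the same region, but it did not hold the start. The 1 homeobox gain was at nkx6.2 at 9 hpi only.

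Among these, the interval at irx1b shrank. It was 3600 bp long in control with a maximum pileup of 79 tags, 2200 bp at 9 hpi with a maximum of 20, and 600 bp at 18 hpi with a maximum of 22. At irx5a the interval was 7000 bp in control (maximum 128 tags) and 5200 bp at 9 and 18 hpi (maxima 74 and 59).

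H3K27Ac was found near few homeobox genes. A start region existed for 7; the nearest region lay beyond 5000 bp for 16 others, in 13 of them nearer to another gene, and 42 had none. At 9 hpi 0 of the 7 were higher and 1 was lower by 2-fold or more, with 6.33% higher and 7.43% lower over all start regions. At 18 hpi 1 was higher and 1 lower, with 6.22% and 6.5% over all. The median change was -0.22 at both times, against 0.14 and 0.0098 over all start regions, and with 7 regions no difference from this background can be read.

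The gene called lower was irx1b at both times. Its H3K27Ac region on chromosome 19 (28540001 to 28547800) averaged 13.6, 4.52 and 3.45 tags, a log2 change of -1.63 and -1.56, and it was called as an interval in control only. The region was thus listed through its control interval alone. The other irx genes were lower by less than 2-fold or level: irx1a averaged 9.26, 5.43 and 4.91 tags (-0.90 and -0.64), irx5a 8.88, 6.94 and 4.76 (-0.54 and -0.62), and irx3a 9.33, 9.36 and 6.95 (-0.22 and -0.22). An H3K27Ac interval held the start of irx1a in control and of irx3a and irx5a in control and at 9 hpi, so no irx start lay in one at 18 hpi.

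Lhx3 was the 1 gene called higher, at 18 hpi only. Its H3K27Ac start region (chromosome 5, 71027801 to 71033000) averaged 4.53 tags in control, 10.9 at 9 hpi and 10.9 at 18 hpi, a change of 0.87 and 1.27. Without the correction for the median change of the mark, which was 0.23 at 9 hpi and -0.16 at 18 hpi, the increase passed 2-fold at both times (1.11 at 18 hpi). A pair of further H3K27Ac regions inside the gene had no interval in control. They were listed through intervals called after injury alone, so for them an increase was favoured in advance. The first (71036801 to 71040400) averaged 3.83, 10.9 and 15.4 tags and was called at 9 and 18 hpi, and the second (71042001 to 71047200) averaged 3.12, 4.90 and 9.01 tags and was called at 18 hpi. The start of lhx3 stayed inside an H3K27me3 interval at all times, which was 11800 bp long in control and at 9 hpi and 7400 bp at 18 hpi. At 18 hpi a separate, weaker interval lay beside it, from -4634 to -1034 bp of the start, with an average of 11.9 tags. The outer ends, at -4634 and 7166 bp, were the same at all times, so the stretch was called in pieces at 18 hpi.

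The strongest H3K27Ac start region was that of dlx5a, a factor of branchial arches, bone and forebrain, but it lay 3203 bp from that gene and 4485 bp from the start of ago2, which encodes an Argonaute protein. It averaged 17.7, 40.1 and 16.3 tags (0.91 and 0.04), high at 9 hpi alone. The remaining member, lhx6, an interneuron factor, averaged 6.38, 9.50 and 5.88 tags and was called as an interval at 9 hpi only. Just outside the limit lay the region of nkx2.2a, a ventral neural tube factor, at 5261 bp with 9.22, 9.20 and 8.77 tags; its intervals held the gene start at 9 and 18 hpi.

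At irx1b the H3K27me3 domain did not change its level while the other marks fell. The region (chromosome 19, 28532801 to 28562400) averaged 14.8, 14.3 and 16.3 tags. The interval around the start was 17200 bp long in control with an average of 20.9 tags, 18400 bp at 9 hpi with 19.6, and 29200 bp at 18 hpi with 16.5. In control, separate intervals already lay beside it, from 7635 to 13635 bp and from -13365 to -11165 bp of the start. The interval at 18 hpi ran from -15965 to 13235 bp and took in most of these. The lengths and averages therefore also depend on how calls were joined. At emx2 the interval was about the same length at each time (25000, 26800 and 25400 bp) with averages of 41.4, 41.7 and 41.4 tags.

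**Figure D5:**
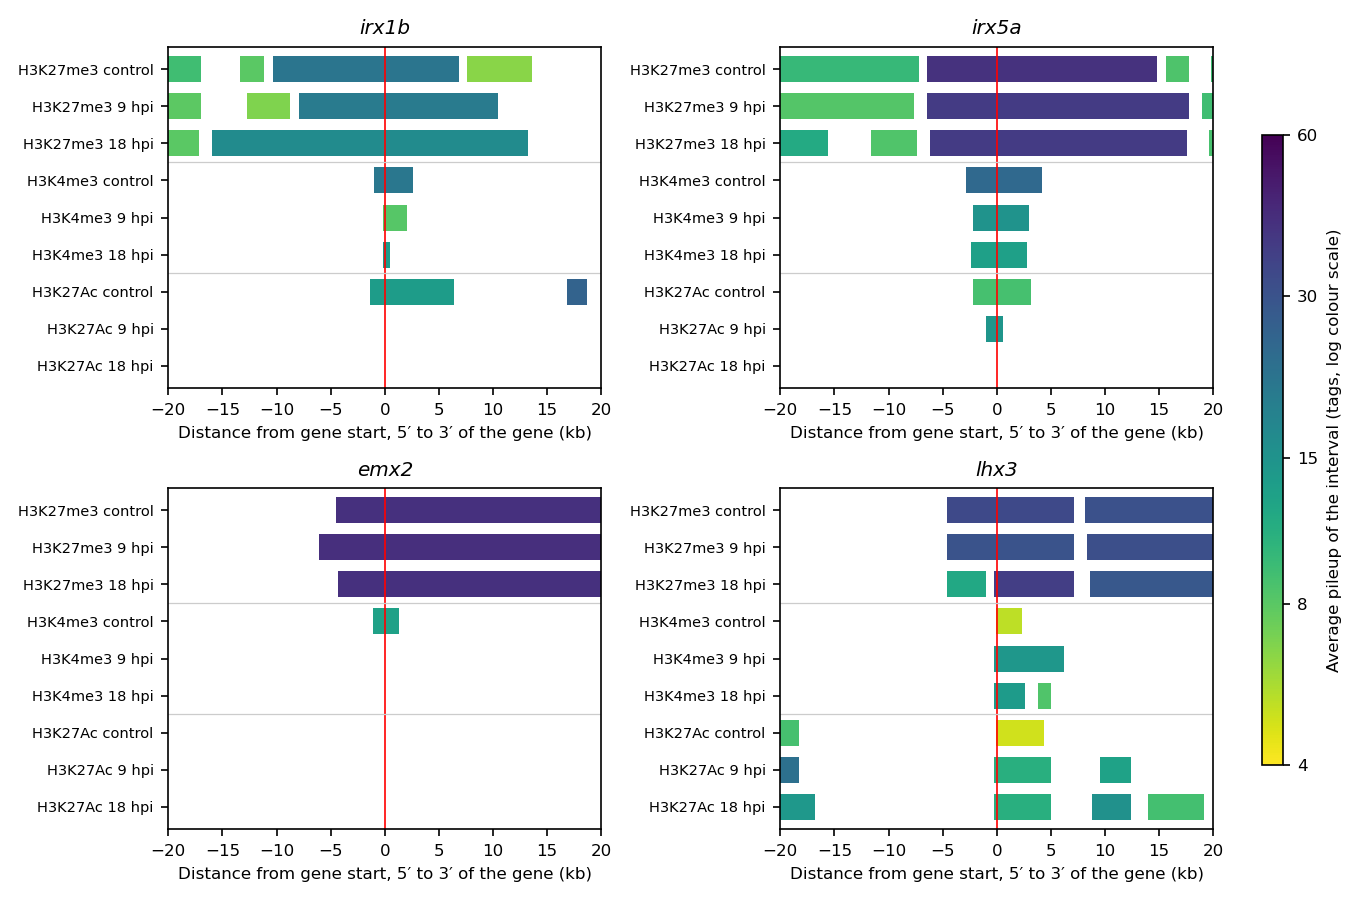
Called intervals of the 3 marks within 20 kb of the starts of irx1b, irx5a, emx2 and lhx3, by distance from the gene start (kb, in the direction of the gene; the red line is the start), with 1 row per library and colour for the interval's average pileup (tags, log colour scale). H3K27me3 covers each start in all 3 rows, H3K4me3 at irx1b shrinks from 3600 to 600 bp, H3K27Ac at irx1b is present in control only, and lhx3 gains H3K27Ac intervals inside the gene.

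Counted by start regions of both marks within 5000 bp with overlapping intervals, 6 homeobox genes carried H3K4me3 with H3K27me3 in control (barhl1a, irx1b, irx3b, lhx3, lhx8a and msxb), 6 at 9 hpi, when nkx6.2 took the place of lhx8a, and 5 at 18 hpi. Of the 53 homeobox genes with a start region of either mark this was 11.3, 11.3 and 9.43%, below the 24.5, 23.5 and 23.2% of all genes. In control this direction is opposite to that of the count by intervals that hold the start (21.5% against 16.7%). The limit on distance weighs on it, because both start regions existed for 7 of the 65 genes.

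Counts over duplicated genes stand beside the shares of the whole set in control, 96.9% of starts in H3K27me3 and 23.1% in H3K4me3, and nothing particular to the pairs is read from them. In 11 of 12 pairs of a and b copies, both starts lay in H3K27me3 in control. In the pair lhx1a and lhx1b, the start of lhx1b alone did. A region of this mark lay inside lhx1a, however, with its middle 66177 bp from the listed start. H3K4me3 held both starts in 2 pairs (irx1a with irx1b, and irx3a with irx3b), 1 start in 2 pairs (dlx2a and not dlx2b, irx5a and not irx5b) and neither in 8.

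The profiles most like that of irx1b, by Pearson correlation of log2 pileup over the 9 libraries after centring each mark, among 6242 genes with start regions of all marks, were those of slc25a4 (r = 0.995), znf704 (0.993), osr1 (0.993), cdon (0.993) and s1pr3a (0.992). The points share their libraries, and the genes were picked as the highest of many. H3K27Ac at slc25a4 averaged 31.9, 11.5 and 7.98 tags and H3K4me3 20.3, 5.38 and 5.11 tags, so both fell from control to 9 hpi as at irx1b. Osr1 had H3K27Ac averages of 13.5, 4.54 and 3.76 tags and H3K4me3 averages of 26.4, 9.86 and 8.03 tags. The correlation does not weigh the size of a change. At znf704 the falls were smaller, with H3K27Ac averages of 19.9, 13.8 and 13.2 tags and H3K4me3 averages of 65.9, 49.4 and 46.0 tags. At cdon H3K4me3 averaged 28.4, 18.2 and 17.5 tags.

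Start regions of genes for proteins that work with these factors, or that write and remove H3K27me3, gave no change of 2-fold or more in any mark at either time. Over all start regions at 9 hpi, 6.33% were higher and 7.43% lower for H3K27Ac, and 3.09% and 2.66% for H3K4me3. At 18 hpi these shares were 6.22% and 6.5% for H3K27Ac, and 4.09% and 2.87% for H3K4me3. For H3K27me3 they were 0.373% and 0.0601% at 9 hpi and 0.589% and 0.12% at 18 hpi, so for that mark 0 is what the background gives. The shares are not matched for signal, and weak H3K4me3 regions passed 2-fold more often. For H3K27Ac and H3K4me3, no stability of these genes is therefore read from the 0. Without centring, 2 genes passed 2-fold: H3K27Ac at ldb2a, with 2.80, 7.60 and 5.43 tags (1.18 at 9 hpi), and H3K4me3 at meis2a, with 23.6, 16.8 and 11.2 tags (-1.01 at 18 hpi). H3K27Ac start regions existed for 8 of 9 LIM partners (ldb and lmo genes) and 11 of 14 partners of the TALE class (pbx, meis and pknox genes). They existed for 3 of 7 listed symbols of the Groucho family (tle symbols and aes) and 14 of 17 Polycomb and H3K27 demethylase genes. The last group had 16 H3K4me3 start regions of 17, and ezh2, which encodes the methyltransferase of Polycomb repressive complex 2, had H3K27Ac averages of 36.1, 64.6 and 39.4 tags. Their H3K27me3 start regions numbered 8 of 9, 7 of 14, 0 of 7 and 4 of 17.

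Marker genes of the cells in the pools moved alongside these decreases. Of 12 skeletal muscle markers, 7 had an H3K4me3 start region, with a summed average of 93.8, 41.2 and 50.7 tags, and 6 and 3 of them were lower by 2-fold or more; actc1b, myhz2, tnni2a.4, ryr1b and ttn.2 had none. Their H3K27Ac sum over 8 genes was 154, 129 and 72.9 tags, with 5 lower at each time and 1 higher at 9 hpi. Of 6 fibroblast markers, 5 summed to 108, 66.0 and 75.4 tags of H3K4me3, with 1 lower at 9 hpi and 1 higher at each time. H3K27Ac at 4 of the 6 summed to 79.8, 42.0 and 39.0 tags, with 2 lower at 9 hpi, 1 lower at 18 hpi and 0 higher, while pdgfra and tcf21 had no H3K27Ac start region. H3K4me3 at 4 of 7 leukocyte markers summed to 23.6, 56.8 and 77.0 tags, with 4 higher at each time, while ptprc, lcp1 and mpx had no start region. The part of these shifts in the irx and emx2 values was not tested.

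For the increase at lhx3, nerve markers stand beside it as follows. Of 7 neuron markers, 3 had an H3K27Ac start region, with sums of 31.7, 33.6 and 29.5 tags, and elavl3, syt1a, gap43 and stmn2a had none. Of these 3, snap25a averaged 10.4, 22.4 and 17.7 tags (0.81 and 0.87) and elavl4 5.03, 6.96 and 8.99 tags (0.17 and 0.89), while snap25b was lower by 2-fold or more at each time, with 16.3, 4.27 and 2.77 tags. The H3K4me3 sums over 2 neuron markers were 20.8, 34.3 and 25.6 tags. The 3 of 5 Schwann cell markers with an H3K27Ac region summed to 48.4, 22.6 and 24.2 tags, with 2 lower at 9 hpi and 1 at 18 hpi, and mpz and sox10 had none. All 5 had an H3K4me3 region, with sums of 59.3, 45.1 and 62.1 tags and no change of 2-fold or more. No retina marker of 7 had a start region of H3K27Ac or H3K4me3, rho and crx included. H3K27Ac at 4 of 7 leukocyte markers summed to 29.9, 71.0 and 50.0 tags, with 2 higher at 9 hpi and 1 at 18 hpi. At 3 of 4 endothelial markers it summed to 32.5, 39.9 and 25.4 tags, and at 3 of 5 epidermal markers to 24.4, 41.0 and 42.8 tags, with 1 of the latter higher at 9 hpi and 2 at 18 hpi. H3K4me3 at 4 endothelial markers summed to 33.6, 44.6 and 58.3 tags with none past 2-fold, and at 4 epidermal markers to 44.2, 41.0 and 33.7 tags, with 1 higher and 1 lower at 9 hpi. The part of any of these cells in the lhx3 values was not tested.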

How the data were processed

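The tools listed in the submitters' processing notes are BWA, SICER 12.1 and MACS2 2.1.0, and the build is danRer10; their roles and thresholds are not given in the sources used here. The authors called intervals per library on a 200 bp grid and deposited, for each mark, regions merged over its 3 libraries. The deposited values are signal, namely average and maximum tag pileup, without a ratio to input; other deposited columns give interval presence, CpG island counts, gene names and distances. Normalization between libraries and tag totals are not given in the sources used here, so depth is unknown and no precision from depth can be stated. The input library was not used here.

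Changes were log2((average + 1)/(control average + 1)) minus the median over regions at or above the 25th percentile of mean average, called at 2-fold, in Python 3.11.15 with pandas 2.3.3 and numpy 2.4.6. This understates changes of weak regions. Distances run from region middles in region tables and from summits in interval lists; from them the starts of 24579 of 24868 genes (98.8%), all 65 homeobox genes included, were solved to within 1 bp, and coordinates are printed counting from 1. The calls and the solved starts were tested on simulated data, which checks the code and not the error of a single library. Symbols matched RefSeq for 56 homeobox genes and a RefSeq synonym for 9. Members, gene lists and rules were chosen with earlier results of these data known. One lhx gene is not reported here. Named were irx1b, members past 2-fold (up to 6 a direction), the 5 highest in control per mark, members with intervals at some times only, those of the 3 longest H3K27me3 regions, those next to the 5000 bp limit, and the 5 profiles most like irx1b. Other members, such as lhx4, gbx1, dlx6a, msxb, msxc, msxe, lhx6 and irx3b, and the further lhx3 regions, ezh2, ldb2a, meis2a and the neuron markers were added after their values were seen. Alternatives were a pseudocount of 5, no centring, maximum pileup, a 1000 bp limit, a filter at the 25th percentile, stricter intervals, and regions or intervals that hold the gene start.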

Additional observations from a re-analysis of the deposited data

How the results depend on the processing

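The absence of 2-fold H3K27me3 changes held under every alternative run. For H3K4me3, the decreases were 7 at 9 hpi and 6 at 18 hpi; with a pseudocount of 5 these were 1 and 3, and under the 25th percentile filter, which left 3 of 19 genes, 0 and 1. At 9 hpi they were 4 with maximum pileup and 4 within 1000 bp, where 11 genes were left. The 1 increase became 0 within 1000 bp and under the filter at both times, and 0 with a pseudocount of 5 at 18 hpi. For H3K27Ac at 9 hpi, increases were 2 without centring, and decreases 2 with maximum pileup, 0 within 1000 bp (2 genes left) and 0 under the filter (3 left). At 18 hpi, increases were 0 with a pseudocount of 5 and within 1000 bp, and decreases 2 with maximum pileup, 0 within 1000 bp and 0 under the filter. Genes with H3K4me3 and H3K27me3 numbered 3 in control, 1 at 9 hpi and 2 at 18 hpi with stricter intervals, 1, 0 and 0 within 1000 bp, and 14, 10 and 7 when intervals of both marks had to hold the gene start, which was chosen after seeing the data and puts the control share above that of all genes. No direction reversed among the called genes; 14 of their values dropped below 2-fold, such as irx2a H3K4me3 at 9 hpi (-0.80 with a pseudocount of 5), and irx1b stayed past 2-fold wherever it had a value. Within 1000 bp and under the filter the cause is the fewer genes left; elsewhere the cause was not tested. No paired analysis was possible because there was 1 library per mark and time. Tag totals are unknown, so limits from depth cannot be given.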
